A study of Mus musculus with 6 samples.

Results

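Interleukin-6 and its relatives are secreted proteins that signal through one shared receptor chain, gp130, which is encoded by Il6st. The 10 genes described here are 4 of these cytokines (Il6, Il11, Lif and Osm), 4 receptor chains (Il6st, Il6ra, Osmr and Lifr), the transcription factor Stat3 and the feedback inhibitor Socs3. They were chosen by name as the cytokine, receptor and response genes of the gp130 pathway, with earlier results of these data known. They are 10 of 36047 genes in the deposited tables. All 10 passed the filter on low counts, among 20094 genes tested.

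RNA sequencing was performed on infarct tissue of C57BL6 mice, given as 12 weeks old in the labels, taken 48 h after ischemia/reperfusion (I/R) of the heart. In this model the left anterior descending coronary artery is tied off for a time and then reopened. After surgery, 3 mice received LGK-974 by oral gavage, repeated daily at 3 mg/kg. LGK-974 inhibits Porcupine, the enzyme that attaches a lipid to Wnt proteins so that they can be secreted. The other 3 mice received DMSO, the solvent of LGK-974, in citrate buffer. All 6 mice had the same injury, so no uninjured heart is included, and the comparison is of LGK-974 with DMSO after I/R. Each library is from 1 mouse, and the tissue is a mixture of cardiomyocytes, fibroblasts, endothelial cells and leukocytes, each read below through marker genes.

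Beside gp130, a cytokine of the family uses a further receptor chain: Il6ra for interleukin-6, Lifr for leukemia inhibitory factor, and Osmr or Lifr for oncostatin M. The complex with gp130 activates Janus kinases (JAK), which phosphorylate STAT3, and STAT3 then enters the nucleus and switches on genes such as Socs3. The SOCS3 protein binds gp130 and damps the signal. In the heart, this pathway is known for its part in cardiomyocyte survival and in the response of fibroblasts and leukocytes to injury.

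STAT proteins bind a mirrored site with the letters TTCNNNGAA, and AP-1 factors of the Fos and Jun families bind TGANTCA. Both motifs read the same on both strands. They were looked for in the RefSeq promoter windows (GRCm38.p6), each running from 250 bases before to 50 bases after a start. Of 32851 windows of all genes, 8.30% held the STAT motif and 7.81% the AP-1 motif. A window was found for 9 of the 10 genes, with 2 windows each for Il11 and Lifr. The STAT motif was found in the window of Socs3 and in no window of the other members. The AP-1 motif was found in Il6, Lif, Osmr and 1 of the windows of Il11. The first line below is the 250 bases before the RefSeq start of Socs3, chr11:117969367-117969616 on the minus strand, and the other lines are the surroundings of the AP-1 matches, with each motif in capitals.
Socs3: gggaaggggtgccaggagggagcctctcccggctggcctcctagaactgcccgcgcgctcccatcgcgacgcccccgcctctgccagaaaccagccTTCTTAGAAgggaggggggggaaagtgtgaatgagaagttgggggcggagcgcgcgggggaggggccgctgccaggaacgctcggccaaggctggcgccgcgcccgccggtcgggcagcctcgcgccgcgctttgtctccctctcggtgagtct
Il6: cTGAGTCActtttaaaga
Il11: ggagggagggTGAGTCAggatgtgtca
Lif: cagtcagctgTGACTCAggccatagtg
Osmr: gccccgtagtTGATTCAtagctggggc

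The STAT match of Socs3 lies at chr11:117969512-117969520 on the minus strand. Its first base is at position −154 from the RefSeq start, and it lies 334 bases from the start of transcript Socs3-201 in the GENCODE annotation. The window ends upstream of that GENCODE start, so the bases next to it were not searched. The AP-1 match begins at position −249 of Il6, −98 of Il11 and −228 of Lif, and at position 3 of Osmr, just inside its RefSeq start. A match describes the letters of a window, and binding was not measured.

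**Figure D1:**
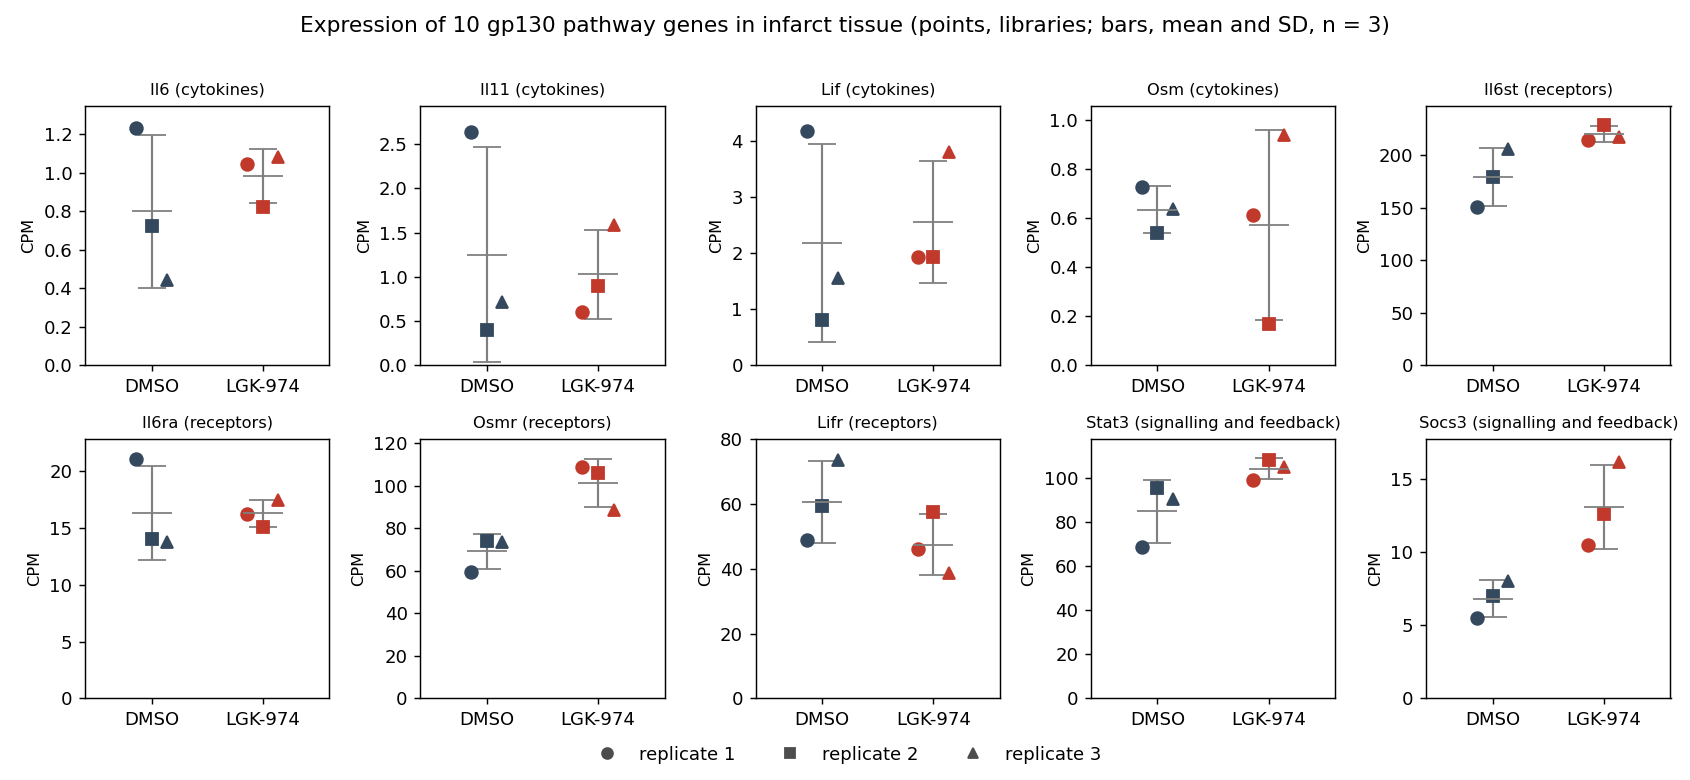
Expression of the 10 genes in each library, in counts scaled to library size (CPM, vertical axes from 0), with DMSO in dark blue and LGK-974 in red. Symbols give the replicate number and bars the mean and SD of 3 mice. In Il6st, Osmr, Stat3 and Socs3 all LGK-974 mice exceed all DMSO mice, and in Il6, Il11 and Lif the highest point is DMSO replicate 1.

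The 6 libraries held 41579787 to 80398211 estimated counts. Of these, mitochondrial genes took 28.1 to 53.6% under LGK-974 and 39.2 to 42.6% under DMSO. DMSO replicate 1 stood apart. Of 2013 olfactory, vomeronasal and taste receptor genes, which the heart is not known to use, 98.1% had counts there, and 48.6 to 79.7% in the other libraries. In that library these receptor genes had a median of 0.578 and a 90th percentile of 3.66 TPM (a level per length of transcript, scaled to the library). In the other 5 libraries the medians were 0 to 0.206 TPM and the 90th percentiles 0.690 to 1.65 TPM. The cytokine members are therefore given below together with this background.

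On the TPM scale, which allows levels of different genes to be compared, Il6st, Stat3, Osmr and Lifr were far above the cytokines, and Il6ra was nearer to them. Il6st was the highest member, with a median of 48.3 TPM over the 6 libraries (25.6 to 96.3), and lay above Stat3 in each library. Stat3 had a median of 35.3 TPM (20.4 to 74.6) and lay above Osmr in each library. Osmr and Lifr had the same median of 19.5 TPM, with Osmr the higher of the pair in the 3 LGK-974 libraries and Lifr in the 3 DMSO libraries. Socs3 had a median of 3.901 TPM (1.57 to 11.5), below Lifr in each library. Il6ra had a median of 2.05 TPM (1.69 to 5.11) and lay below Socs3 in 5 libraries.

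The cytokines followed, with medians of 1.03 TPM for Lif, 0.579 for Il6, 0.376 for Il11 and 0.357 for Osm, and Lif lay below Il6ra in all 6 libraries. Lif was above Il6 in 3 libraries, Il6 above Il11 in 5, and Il11 above Osm in 3, so the order of the cytokines among themselves was not resolved.

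The comparison of LGK-974 with DMSO was the one the study was made for. With edgeR's quasi-likelihood test, 0 of the 10 members had a Benjamini-Hochberg adjusted p under 0.05, against 0.0% of all genes tested (0 genes, lowest adjusted p 0.368). At an unadjusted p under 0.05, where 2699 of all genes lay, 2 members were higher with LGK-974, Socs3 and Osmr, against 6.26% of all genes, and 0 were lower, against 7.18%. In 4 members (Il6st, Osmr, Stat3 and Socs3) all LGK-974 mice exceeded all DMSO mice, which held for 10.7% of all genes. In 0 members all LGK-974 mice were below, against 7.27% of all genes. The log2 fold change was above 0 in 7 members and below 0 in 3. Its median was 0.26 over the members and −0.13 over all genes tested.

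**Figure D2:**
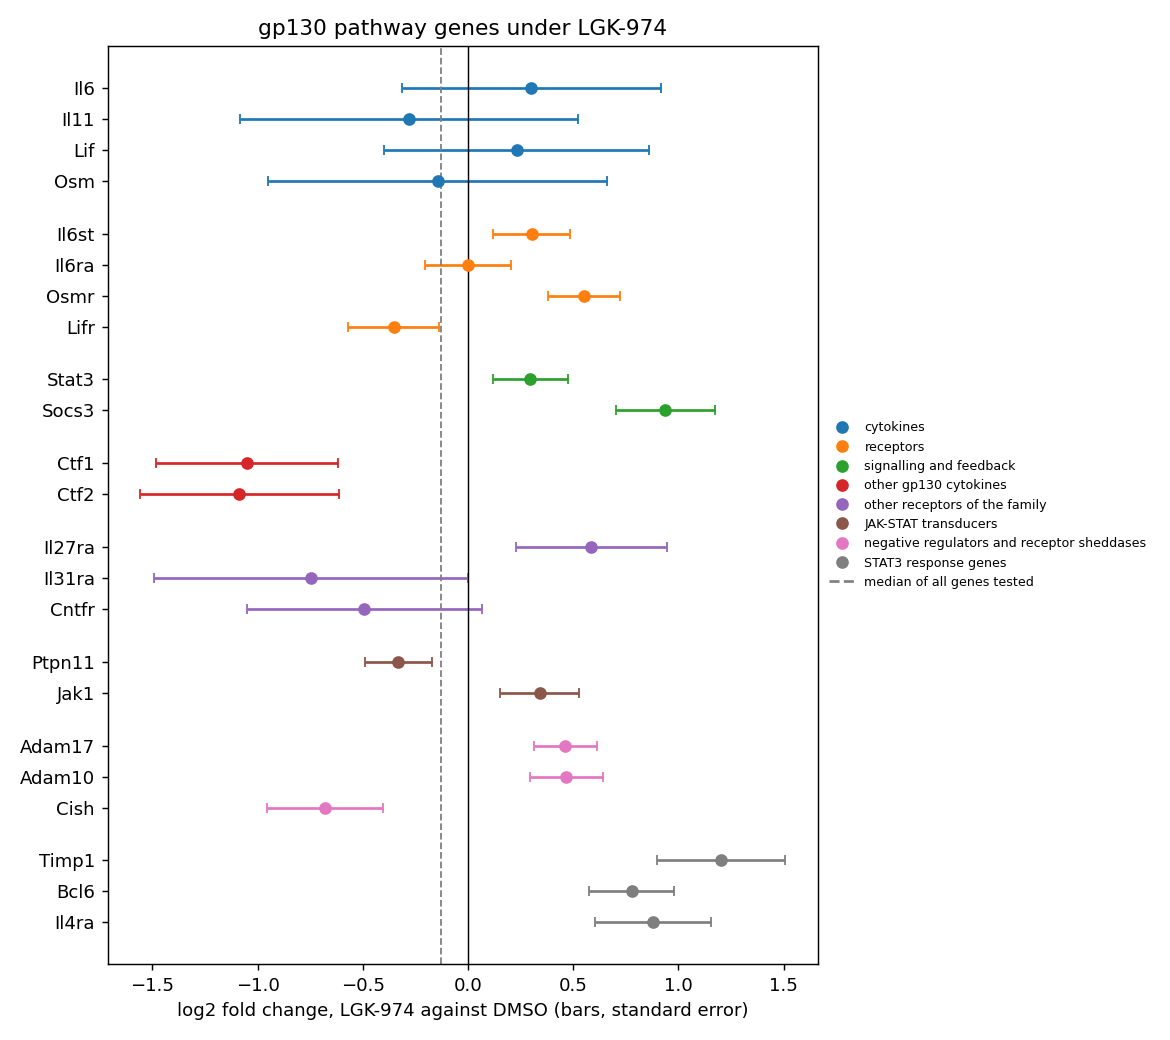
LGK-974 against DMSO as a log2 fold change (horizontal axis) with its standard error (bars) from edgeR, for the 10 members and for up to 3 genes of each further list of the pathway, coloured by role. The dashed line is the median of all genes tested, −0.13. Socs3 lies at 0.94 and Timp1 at 1.203, and the bars of the 4 cytokines cross 0.

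Interleukin-6, the founding cytokine of the family, is encoded by Il6 on chromosome 5 of GRCm38 (30013114 to 30019981, plus strand). Its expression was 1.05, 0.82 and 1.08 CPM in LGK-974 replicates 1, 2 and 3 and 1.23, 0.72 and 0.44 CPM in DMSO replicates 1, 2 and 3. The highest value was in DMSO replicate 1, and the groups overlapped. These values rest on 18 to 89 estimated counts per library. LGK-974 and DMSO mice differed by a log2 fold change of 0.30 (standard error 0.615, edgeR adjusted p = 0.819), smaller than the spread between mice. It was 0.77 without DMSO replicate 1 and 0.13 without DMSO replicate 3. In DMSO replicate 1, 50.0% of the receptor genes that the heart is not known to use lay at or above the TPM of Il6, and in the other libraries 6.61 to 39.3%.

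Interleukin-11, a cytokine known to act on fibroblasts, is encoded by Il11 on chromosome 7 (4772373 to 4782859, minus strand). It was measured at 0.60, 0.90 and 1.58 CPM with LGK-974 and at 2.64, 0.39 and 0.71 CPM with DMSO. DMSO replicate 1 was the highest of all 6 libraries, while the other DMSO mice lay within or below the range of the LGK-974 mice. The log2 fold change was −0.28 (standard error 0.801, edgeR adjusted p = 0.876). Without DMSO replicate 1 it was 0.90. With all 6 libraries it was 0.081 with limma-voom and 0.13 with the replicate number as a block, so the direction was not settled. Of the receptor genes not known in the heart, 49.6% lay at or above the TPM of Il11 in DMSO replicate 2 and 7.95 to 30.1% in the other libraries.

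Leukemia inhibitory factor, which signals through Lifr and gp130, is encoded by Lif on chromosome 11 (4257557 to 4272514, plus strand). Its values were 1.92, 1.92 and 3.80 CPM with LGK-974 and 4.17, 0.81 and 1.55 CPM with DMSO. DMSO replicate 1 was again the highest library, and the other DMSO mice were the lowest. Lif had a log2 fold change of 0.23 (standard error 0.628, edgeR adjusted p = 0.869). Without DMSO replicate 1 it was 1.12, with an unadjusted p of 0.0449 from edgeR. Without LGK-974 replicate 3 it was −0.08 and without DMSO replicate 2 it was −0.19. In DMSO replicate 2, 52.4% of the receptor genes not known in the heart lay at or above the TPM of Lif, and 5.37 to 26.4% in the other libraries.

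Oncostatin M, a product of leukocytes that acts on cardiomyocytes and fibroblasts, is encoded by Osm on chromosome 11 (4236420 to 4241026, plus strand). It was among the least abundant members, with 9 to 60 estimated counts per library. Its values were 0.61, 0.17 and 0.94 CPM with LGK-974 and 0.73, 0.54 and 0.64 CPM with DMSO, so that both the lowest and the highest mouse had received LGK-974. The log2 fold change was −0.14 (standard error 0.806, edgeR adjusted p = 0.941), and 0.35 without LGK-974 replicate 2. In DMSO replicate 1, 90.6% of the receptor genes not known in the heart lay at or above the TPM of Osm, and 10.7 to 43.8% in the other libraries.

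The shared signal chain gp130 is encoded by Il6st on chromosome 13 (112464070 to 112510086, plus strand). Expression was 215, 229 and 217 CPM with LGK-974 and 151, 179 and 206 CPM with DMSO. The LGK-974 mice lay close together and all above the DMSO mice, of which replicate 3 came nearest. In the edgeR fit it had a log2 fold change of 0.30 (standard error 0.183, edgeR adjusted p = 0.438), a 1.23-fold higher level that did not pass the test. It was 0.52 without DMSO replicate 3 and 0.21 without DMSO replicate 1. Il6st had 5999 to 18231 estimated counts per library, so counting error was small against the differences between mice.

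Il6ra, the binding chain for interleukin-6, lies on chromosome 3 (89864059 to 89913196, minus strand). It was measured at 16.2, 15.1 and 17.5 CPM with LGK-974 and at 21.1, 14.03 and 13.8 CPM with DMSO. The means were the same to the 3rd digit, 16.3 ± 1.18 and 16.3 ± 4.14 CPM (mean ± SD of 3 mice each), but DMSO replicate 1 lay above and the other DMSO mice below every LGK-974 mouse. The log2 fold change was 0.00 (standard error 0.203, edgeR adjusted p = 0.9997) and 0.25 without DMSO replicate 1. Exons of Il6ra share 242 bases with the antisense gene Gm42809, and whether the counting used strand is not given in the sources used here.

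Osmr, the oncostatin M receptor, lies on chromosome 15 (6813577 to 6874969, minus strand). Its expression was 109, 106 and 88.4 CPM with LGK-974 and 59.5, 74.1 and 73.7 CPM with DMSO. The lowest LGK-974 mouse lay above the highest DMSO mouse. Mean expression was 101 ± 11.1 CPM with LGK-974 and 69.1 ± 8.32 CPM with DMSO (mean ± SD of 3 mice each), a 1.46-fold higher level. LGK-974 and DMSO mice differed by a log2 fold change of 0.55 (standard error 0.172, unadjusted p = 0.0130, edgeR adjusted p = 0.368). Over 13 alternatives it stayed between 0.46 and 0.71, with the unadjusted p from edgeR at 0.0530 without LGK-974 replicate 1 and 0.0640 without LGK-974 replicate 2.

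Lifr, the receptor of leukemia inhibitory factor, lies near Osmr on chromosome 15 (7090614 to 7197489, plus strand), and was the receptor chain with lower values under LGK-974. Expression was 46.1, 57.5 and 38.8 CPM with LGK-974 and 48.8, 59.4 and 73.8 CPM with DMSO. LGK-974 replicate 2 lay above DMSO replicate 1, so the groups overlapped. The log2 fold change was −0.35 (standard error 0.217, edgeR adjusted p = 0.441). Without DMSO replicate 1 it was −0.47, with an unadjusted p of 0.0476 from edgeR, and the groups no longer overlapped. It was −0.08 without DMSO replicate 3 and −0.17 without LGK-974 replicate 3.

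The balance of these receptor chains was also read within each library, as a ratio of counts that no scaling between libraries can alter. This ratio was chosen after the values were seen, and so carries no test. There were 2.36, 1.85 and 2.28 counts of Osmr for each count of Lifr with LGK-974 and 1.22, 1.25 and 0.999 with DMSO. The mean ratio was 2.16 ± 0.277 with LGK-974 and 1.16 ± 0.135 with DMSO (mean ± SD of 3 mice each), without overlap.

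Stat3, the transcription factor that carries the gp130 signal to the nucleus, lies on chromosome 11 (100885098 to 100939540, minus strand). Expression was 98.8, 108 and 105 CPM with LGK-974 and 68.5, 95.2 and 90.4 CPM with DMSO. The groups did not overlap, but DMSO replicate 2 came within a few CPM of LGK-974 replicate 1. Stat3 had a log2 fold change of 0.30 (standard error 0.177, edgeR adjusted p = 0.433), with 0.18 without DMSO replicate 1, the lowest library, and 0.45 without DMSO replicate 3. These are RNA levels, and phosphorylation of STAT3 was not measured in these files. Exons of Stat3 share 72 bases with Stat5a on the other strand.

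Socs3, a direct target of STAT3 that shuts off gp130 signaling, lies on chromosome 11 (117966079 to 117970047, minus strand) and had the largest difference among the members. Expression was 10.5, 12.6 and 16.2 CPM with LGK-974 and 5.48, 7.03 and 8.01 CPM with DMSO. All LGK-974 mice exceeded all DMSO mice. Mean expression was 13.1 ± 2.87 CPM with LGK-974 and 6.84 ± 1.27 CPM with DMSO (mean ± SD of 3 mice each), a 1.92-fold higher level. In edgeR the log2 fold change was 0.94 (standard error 0.234, unadjusted p = 0.00419, edgeR adjusted p = 0.368). It lay between 0.81 and 1.17 over the 13 alternatives, with the lowest value without DMSO replicate 1. The unadjusted p was at most 0.0169 in each of them. Socs3 passed the adjusted threshold in 1 alternative, edgeR without a filter on low counts (adjusted p = 0.0166).

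Within each library there were 0.107, 0.116 and 0.154 counts of Socs3 for each count of Stat3 with LGK-974 and 0.0800, 0.0739 and 0.0886 with DMSO. This ratio was also chosen after the values were seen. The groups did not overlap, and Socs3 was thus higher relative to Stat3 as well. The genes whose log2 CPM followed Socs3 most closely over the 6 libraries were Slc23a2, a vitamin C transporter (Pearson's r = 0.999), Uggt1, which checks protein folding in the endoplasmic reticulum (r = 0.996), and Gvin1, an interferon-induced GTPase (r = 0.995). They are a description chosen from all genes tested, and the 6 points share the 2 groups and the library scaling. Gvin1 was measured at 105 ± 18.8 CPM with LGK-974 and 69.3 ± 8.52 CPM with DMSO (mean ± SD of 3 mice each). Gvin1 belongs to a family of near-identical genes between which reads can be split, so its value is uncertain. Uggt1 had a log2 fold change of 0.32, but −0.14 on counts scaled from TPM.

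**Figure D3:**
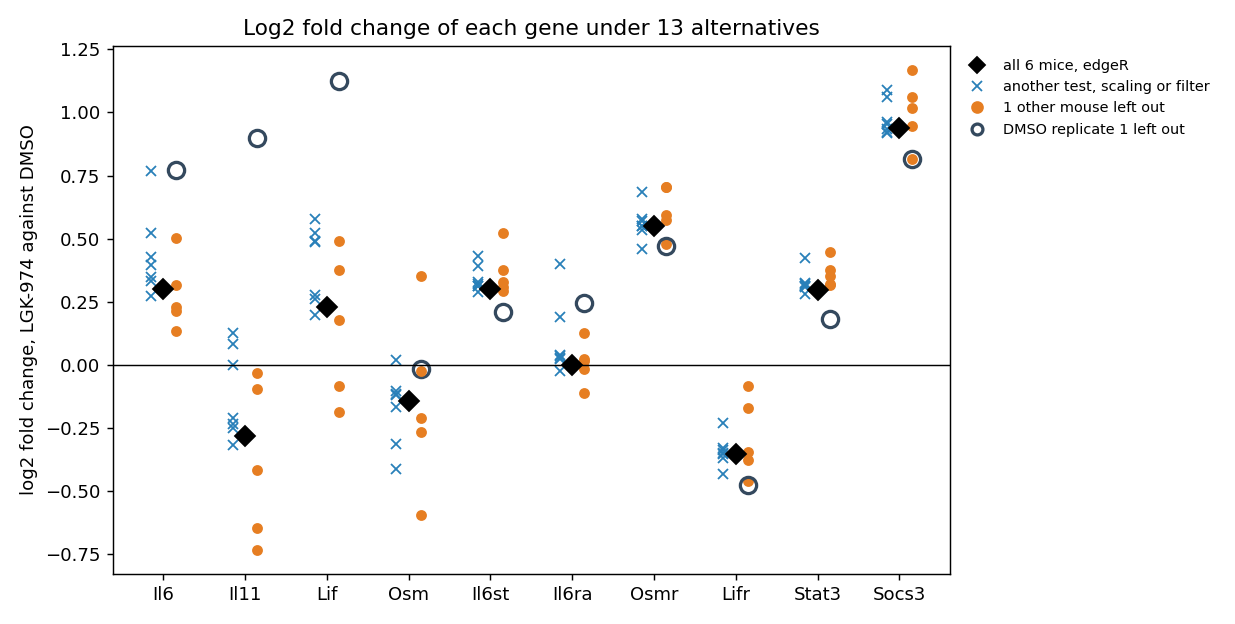
Log2 fold change of each member (vertical axis) in the edgeR fit of all 6 mice (black diamonds), with another test, scaling or filter (blue crosses), and with 1 mouse left out (orange points, open circles for DMSO replicate 1). Osmr and Socs3 stay above 0 and Lifr below 0 throughout, while Il11 runs from −0.73 to 0.90 and Lif from −0.19 to 1.12.

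DMSO replicate 1 was the lowest library for Il6st, Osmr, Stat3 and Socs3 and the highest for Il6, Il11, Lif and Il6ra. Without it, all LGK-974 mice exceeded the remaining DMSO mice in 7 of the 10 members, against 15.1% of all genes. These were Il6, Lif, Il6st, Il6ra, Osmr, Stat3 and Socs3. In 1 member, Lifr, all LGK-974 mice were below, against 12.6% of all genes. This alternative was added after the values were seen. Il6, Lif and Il6ra joined because the library in which they were highest was left out. Lifr joined because the DMSO mouse within the LGK-974 range was left out. The counts follow from that choice and are no support for a change.

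The wider family was read from lists of other cytokines, receptors, kinases, inhibitors and STAT3 targets. Of 7 other gp130 cytokine genes tested, 4 had a log2 fold change above 0 and 3 below, with a median of 0.05. At an unadjusted p under 0.05, 0 were higher, against 6.26% of all genes, and 1 was lower, against 7.18%. This was Ctf1, which encodes cardiotrophin-1, a member of the family named for its action on heart muscle cells. Ctf1 was measured at 0.848, 1.18 and 0.830 CPM with LGK-974 and at 1.63, 2.05 and 2.24 CPM with DMSO, without overlap. Its log2 fold change was −1.05 (standard error 0.433, unadjusted p = 0.0422, edgeR adjusted p = 0.368), and the unadjusted p passed 0.05 when any 1 mouse other than DMSO replicate 1 was left out, reaching 0.152. Its paralog Ctf2 had a mean of 1.82 ± 0.465 CPM with LGK-974 and 3.87 ± 2.33 CPM with DMSO (mean ± SD of 3 mice each), with DMSO replicate 1 at 6.56 CPM and a log2 fold change of −1.09. Without DMSO replicate 1 its log2 fold change was −0.46. Ctf1 lay at a low level, like the cytokine members, and was not set against the background of receptor genes.

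Of 5 other receptor genes 4 were tested, with Il11ra2 left out because its symbol belongs to several gene identifiers. Of these, 2 had a log2 fold change above 0 and 2 below, with a median of −0.19. At an unadjusted p under 0.05 lay 0 of them, against 6.26% of all genes higher and 7.18% lower. Il27ra, the receptor of interleukin-27, was at 2.38 ± 0.370 CPM with LGK-974 and 1.58 ± 0.202 CPM with DMSO (mean ± SD of 3 mice each), without overlap. Its log2 fold change was 0.59 (edgeR adjusted p = 0.443), and 0.098 on counts scaled from TPM. Il31ra and Cntfr had log2 fold changes of −0.75 and −0.49. The sign of Il31ra turned without DMSO replicate 1 (0.66), and that of Cntfr without DMSO replicate 3 (0.13).

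Among 9 kinases, STATs and adaptors that pass on the signal, 6 had a log2 fold change above 0 and 3 below, with a median of 0.14. Jak1, the main kinase bound to gp130, had a log2 fold change of 0.34 and overlapping groups, with 0.58 without DMSO replicate 3. Ptpn11, the phosphatase SHP2 that competes with SOCS3 for the same site of gp130, was lower in every LGK-974 mouse, at 82.7 ± 5.94 CPM against 104 ± 10.1 CPM with DMSO (mean ± SD of 3 mice each). Its log2 fold change was −0.33 (edgeR adjusted p = 0.372), and −0.17 without DMSO replicate 3.

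Among 8 negative regulators and receptor sheddases, 5 had a log2 fold change above 0 and 3 below, with a median of 0.08. At an unadjusted p under 0.05, 2 were higher, against 6.26% of all genes, and 1 was lower, against 7.18%. Those higher were the proteases that cut the interleukin-6 receptor from the cell surface. Adam17 was at 44.8 ± 3.84 CPM with LGK-974 and 32.5 ± 3.001 CPM with DMSO, and Adam10 at 91.5 ± 8.53 CPM and 66.2 ± 9.88 CPM (mean ± SD of 3 mice each). Their log2 fold changes were 0.46 and 0.47 (standard errors 0.150 and 0.174, edgeR adjusted p = 0.368 for both), without overlap between the groups. Without LGK-974 replicate 2 the unadjusted p from edgeR was 0.0610 for Adam17, and for Adam10 it passed 0.05 when any 1 mouse other than DMSO replicate 3 was left out, reaching 0.0834. Cish, an inhibitor of the same family as Socs3 that answers mainly to STAT5, was lower, with a log2 fold change of −0.68 (standard error 0.274, edgeR adjusted p = 0.368) and overlapping groups. Without DMSO replicate 3 its log2 fold change was −0.28.

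Of 20 genes known to respond to STAT3, 19 were tested and Reg3b lay under the count filter. The log2 fold change was above 0 in 14 and below 0 in 5, with a median of 0.22. At an unadjusted p under 0.05, 7 were higher (Timp1, Bcl6, Il4ra, Fos, Hp, Bcl3 and Junb), against 6.26% of all genes. At that p 0 were lower, against 7.18%. Of the 19 tested, all LGK-974 mice exceeded all DMSO mice in 7, the same genes, against 10.7% of all genes. In 1 all LGK-974 mice were below, against 7.27% of all genes. Timp1, an inhibitor of matrix metalloproteinases, was measured at 82.2 ± 32.8 CPM with LGK-974 and 35.7 ± 7.05 CPM with DMSO (mean ± SD of 3 mice each). Its log2 fold change was 1.203 (standard error 0.306, unadjusted p = 0.00461, edgeR adjusted p = 0.368). DESeq2, fitted without the filter on low counts, gave an adjusted p of 0.0129. Bcl6, a transcriptional repressor, had a log2 fold change of 0.78 and Il4ra, a chain of the interleukin-4 receptor, of 0.88, each with an edgeR adjusted p of 0.368. Without LGK-974 replicate 3, that of Il4ra was 0.57. The list did not move one way. Lcn2, an acute-phase protein made by neutrophils and cardiomyocytes, had a log2 fold change of −0.82 (edgeR adjusted p = 0.370), and in Lrg1, another acute-phase gene, all LGK-974 mice were below all DMSO mice with a log2 fold change of −0.42 (edgeR adjusted p = 0.373). These were named after their values were seen, as the lowest of the list.

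Levels in tissue RNA depend on the cells present, and more cells of a type cannot be told apart here from more RNA per cell. In other mice at the same time after injury, the paper counted cells of whole hearts by flow cytometry. It reported fewer leukocytes and inflammatory monocytes with LGK-974, and no significant difference in macrophages and neutrophils. Monocyte and macrophage markers were higher with LGK-974. The members whose groups did not overlap were set beside them. By that choice, these members are higher in the same group as any marker sum that is higher with LGK-974. Of 12 markers, all 12 had a log2 fold change above 0, 10 of them at an unadjusted p under 0.05, against 6.26% of all genes. Their summed level was 584 to 722 CPM with LGK-974 and 268 to 382 CPM with DMSO. Within the LGK-974 group, replicate 2 had the lowest sum but the highest Il6st and Stat3. In that group replicate 3 had the highest sum and the highest Socs3. Fibroblast markers were also higher, with 7 of 7 above 0. At an unadjusted p under 0.05 lay 3 of them (Col1a1, Col1a2 and Postn), against 6.26% of all genes. Their sums were 2166 to 3825 CPM with LGK-974 and 1152 to 1670 CPM with DMSO. The general fibroblast markers Dcn and Pdgfra had log2 fold changes of 0.0054 and 0.13, with overlapping groups. Of 10 cardiomyocyte markers 9 were below 0, with Actc1 the exception, and sums of 41421 to 58267 CPM with LGK-974 and 46789 to 64608 CPM with DMSO. Endothelial markers summed to 507 to 583 CPM with LGK-974 and 428 to 613 CPM with DMSO. The part of these cell types in the values of Il6st, Osmr, Stat3, Socs3 and Timp1 was not tested.

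**Figure D4:**
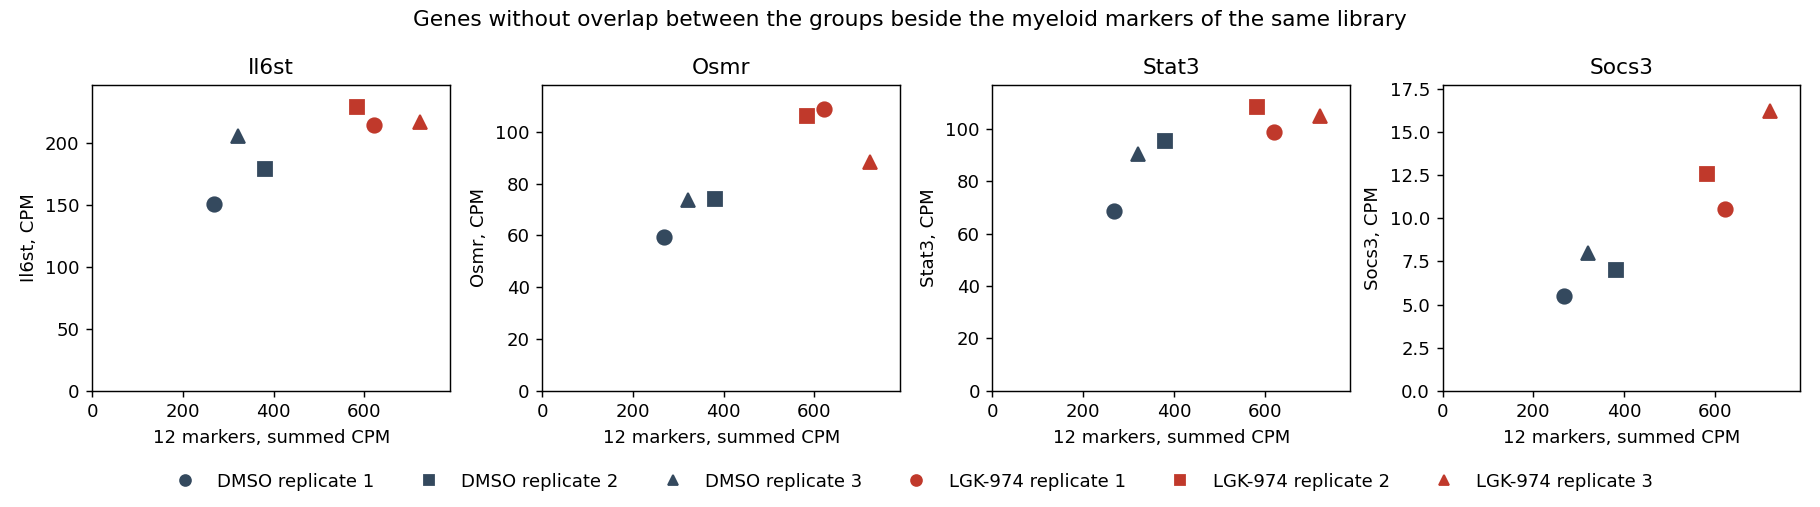
Expression of Il6st, Osmr, Stat3 and Socs3 in CPM (vertical axes from 0) against the summed CPM of 12 monocyte and macrophage markers (horizontal axes from 0) in the same library, with DMSO in dark blue and LGK-974 in red. These 4 genes were chosen because their groups did not overlap. DMSO replicate 1 has the lowest marker sum, 268 CPM, and the lowest value of all 4 genes, and LGK-974 replicate 3 has the highest sum, 722 CPM, and the highest Socs3 but the lowest Osmr of its group.

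The cytokines that were highest in DMSO replicate 1 lay beside other markers. Neutrophil markers summed to 79.2 CPM in DMSO replicate 1 and to 32.7 to 45.9 CPM in the other 5 libraries, and Ly6g and Retnlg were at 0 in at least 1 library. Most of the excess was Cxcr2, at 50.3 CPM in DMSO replicate 1 and 12.0 to 17.2 CPM in the others, while S100a8, S100a9 and Csf3r lay within the range of the other libraries. T cell markers summed to 51.9 CPM in DMSO replicate 1 and 18.4 to 22.7 CPM in the others, and B cell markers to 7.01 CPM and 1.77 to 3.29 CPM. Ms4a1 made up 5.30 CPM of the B cell sum in DMSO replicate 1. In the same library, the receptor genes not known in the heart were also at their highest. The part of each in the values of Il6, Il11, Lif and Osm was not tested.

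The tables give each transcript, and transcripts that do not code for protein were also assigned to 7 of the members. As a share of TPM, protein-coding transcripts of Osmr made up 65.5, 61.4 and 59.5% with LGK-974 and 55.3, 48.3 and 56.1% with DMSO. The groups did not overlap, and the difference of the means was 8.92 percentage points (exact two-sided permutation test, p = 0.1, the smallest it can give, adjusted p = 0.35 over 7 members). The rest of Osmr was assigned to retained introns, in which an intron stays in the RNA. In estimated counts the protein-coding share of Osmr was 75.6 to 84.9%. The leading transcript, Osmr-201, held 46.9 to 62.7% of the TPM of the gene.

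In Socs3 the protein-coding share of TPM went the other way, at 95.3, 79.8 and 94.9% with LGK-974 and 96.3, 100 and 100% with DMSO (exact two-sided permutation test, p = 0.1, adjusted p = 0.35). The remainder was Socs3-202, a processed transcript of 490 bases with at most 20.5 estimated counts, so this difference rests on few counts. In Lif, Osm, Il6st, Lifr and Stat3 the exact two-sided permutation p was 0.4 to 0.9.

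Lifr shows how a short transcript can carry the TPM of a gene. Lifr-205, a processed transcript of 299 bases, held 41.5 to 66.2% of the TPM of Lifr on 39.8 to 113 estimated counts. Lifr-203, a protein-coding transcript of 9655 bases, held 13.1 to 24.0% on 1430 to 2773 counts. By counts, 89.1 to 95.2% of Lifr was protein-coding, and by TPM 31.0 to 54.7%. The order of Osmr and Lifr on the TPM scale therefore includes this short transcript, whereas the fold changes are on summed counts, of which it holds a small share. Likewise, Il6st-205, of 322 bases, held 23.8 to 27.1% of the TPM of Il6st on 58.7 to 165 counts, and the full Il6st-201 36.4 to 44.5%.

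**Figure D5:**
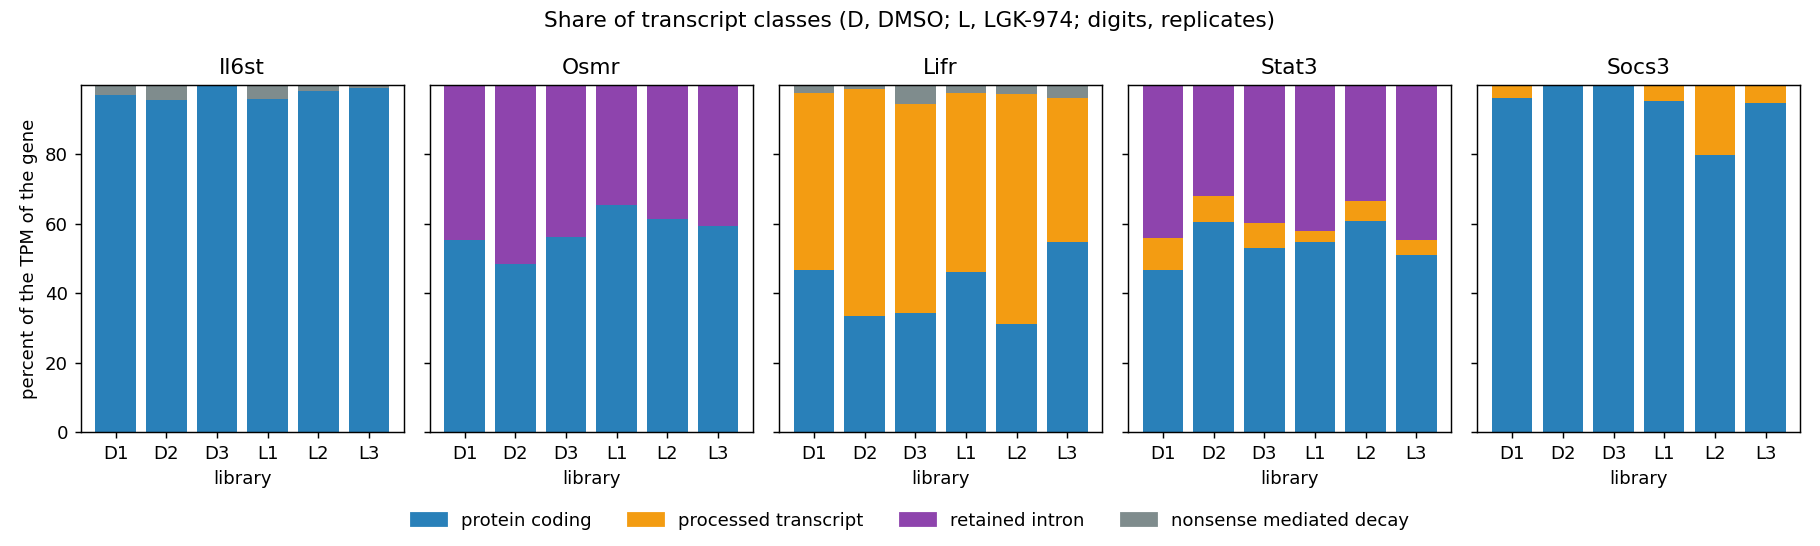
Share of each gene's TPM assigned to transcripts annotated as protein coding, processed transcript, retained intron or nonsense mediated decay (vertical axes, percent, from 0), in each library (D1 to D3, DMSO; L1 to L3, LGK-974). The protein-coding share of Osmr is 59.5 to 65.5% with LGK-974 and 48.3 to 56.1% with DMSO, and Lifr is 31.0 to 54.7% protein-coding over the 6 libraries.

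Both transcripts of Il6ra are protein-coding. The shorter, Il6ra-201 of 3343 bases, held 57.8, 56.5 and 56.6% of the TPM of the gene with LGK-974 and 5.20, 39.001 and 41.7% with DMSO. It held the larger share in each LGK-974 library, and the longer Il6ra-202, of 8639 bases, in each DMSO library. This split was noticed in the values and carries no test. In Stat3 the leading transcript, Stat3-203, held 30.2 to 45.2% of the TPM, with 14 transcripts assigned to the gene. The 4 transcripts of Il6 are all protein-coding and rest on too few counts to order them: Il6-201 ran from 0 to 95.4% of the TPM between libraries.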

How the data were processed

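Infarct tissue of 3 LGK-974 and 3 DMSO mice was analysed, grouped by the sample labels. Total RNA was depleted of ribosomal RNA, and libraries were prepared with a capture kit, per the study's methods. The authors quantified 118489 transcripts with Kallisto on Ensembl GRCm38. They deposited estimated counts and TPM values per transcript and library. The version, trimming and strand setting are not given in the sources used here. A capture kit can measure genes outside its probes, such as non-coding transcripts, with less sensitivity.

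Estimated counts were joined to GENCODE genes of GRCm38 (98.6% of transcripts), summed per gene and rounded. Reads shared between overlapping or near-identical genes stay divided as deposited. Depth was 41579787 to 80398211 counts per library. The number of mice limits precision more than counting error, and low counts add to the error in the cytokines. The filter was 10 or more counts in 3 or more libraries. The 20094 genes left were fitted with edgeR 4.0.16 in R 4.3.3 (quasi-likelihood F test, TMM scaling) with a single term for treatment. P-values were adjusted over all of them by Benjamini-Hochberg, with a threshold of 0.05. CPM are scaled by TMM. Deposited TPM values were summed per gene for levels and transcript shares. Shares were compared with an exact permutation test, which with 3 against 3 cannot go below 0.1. The scripts were tested on simulated data. Alternatives used DESeq2 1.42.0 (on all genes with a count, without the filter), limma 3.58.1, other scalings and filters, and 1 mouse left out. Python 3.11.15 with SciPy 1.17.1, pandas 2.3.3 and matplotlib 3.10.9 was used for tables and figures.

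The members and lists were chosen with earlier results of these data known. Named genes are all 10 members, up to 3 genes of each list with the smallest unadjusted p, and the 3 genes most correlated with the member of smallest p. Some genes this rule names are not reported here. Symbols with prefixes Olfr, Vmn1r, Vmn2r and Tas2r made up the genes not known in the heart.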

Additional observations from a re-analysis of the deposited data

How the results depend on the processing

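There are 3 mice a group, 1 DMSO library stands apart, and the cytokines rest on few counts. Of 130 member fold changes under 13 alternatives, 119 kept their direction and their side of the adjusted threshold, 10 turned direction and 1 newly passed. Of 195 for the named genes of the pathway lists, these were 189, 2 and 4. Genes passing the adjusted threshold, 0 by edgeR, numbered 315 with DESeq2, 1206 in edgeR without a filter on low counts and 0 to 2 with 1 mouse left out. DESeq2 was also run without that filter, so its number does not show the change of test alone. The median log2 fold change of all genes was −0.75 with DESeq2 and −0.55 in edgeR without the filter. Members passing the threshold numbered 1 in edgeR without the filter, and genes of the pathway lists 1 with DESeq2 and 4 in edgeR without the filter. Members at an unadjusted p under 0.05 were 1 to 3 higher and 0 to 1 lower with 1 mouse left out, the low counts without LGK-974 replicate 1 or 2 and the added members, Lif (higher) and Lifr (lower), without DMSO replicate 1. List genes higher at that p, 10 by edgeR, were 6 without LGK-974 replicate 2. Those lower, 2 by edgeR, were 0 without LGK-974 replicate 1 or 3 and 5 without DMSO replicate 1. Of all genes, 821 lay under that p without LGK-974 replicate 3 and 4628 without DMSO replicate 3.

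The direction turned in Il11 with limma-voom (0.081), in Osm with edgeR without the filter (0.020), in Il6ra among protein-coding genes (−0.023) and in Uggt1 on counts scaled from TPM (−0.14). With 1 mouse left out, log2 fold changes ran from −0.73 to 0.90 in Il11, −0.19 to 1.12 in Lif, −0.60 to 0.35 in Osm, −0.11 to 0.25 in Il6ra, −1.14 to 0.66 in Il31ra and −0.87 to 0.13 in Cntfr. The causes were not tested. The labels link same-numbered mice by the number alone. Correlations of their deviations were 0.475, −0.0482 and 0.391, and those of the other pairs ran from −0.518 to 0.1. Whether same-numbered mice shared a batch was not tested. In the fit with the number as a replicate block, 0 genes passed the adjusted threshold and 3312 the unadjusted one (2699 without it), Il11 turned to 0.13, and edgeR's adjusted p was 0.124 for Socs3 and 0.241 for Osmr.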
